A study of Homo sapiens with 3 samples.

Results

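The integrin and laminin genes of A375 melanoma cells were followed across control cells, cells given the secretome of young adipocytes and cells given that of old adipocytes. The members were all protein-coding genes whose symbol names an integrin α chain (ITGA with a number, V, E, L, M, X or 2B), an integrin β chain (ITGB1 to ITGB8) or a laminin chain (LAMA, LAMB or LAMC). This gave 37 of the 58037 genes in the count table, namely 17 integrin α genes, 8 integrin β genes and 12 laminin genes. A filter of a mean normalised count of at least 20 over the 3 libraries was passed by 30 members, 20 integrins and 10 laminins, and by 14413 genes in all.

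A375 is an established human melanoma cell line. The control cells were held in serum-free DMEM. The YA-A375 cells were held in serum-free DMEM conditioned by young adipocytes, and the OA-A375 cells in the same medium conditioned by old adipocytes. Each exposure was 24 h in the series description and the study's RNA sequencing methods, although the general treatment protocol allows a longer one. The adipocytes were differentiated in culture from human subcutaneous preadipocytes with insulin, dexamethasone, indomethacin and IBMX, and the control medium had not been on adipocytes, so that a response to what adipocytes add and a response to what they take up cannot be told apart. In the donor list of the study nearly all young donors were female and all old donors male, and tissue source and body site also differed. Which donors supplied the secretomes of these libraries is not stated there. Donor age, sex and source therefore cannot be told apart between YA-A375 and OA-A375. Each group was 1 library, which leaves no spread between replicates, and no p-value was computed.

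Integrins are receptors of the cell surface built from 1 α and 1 β chain, and the pair decides which matrix protein is bound. By their main ligands they are grouped into collagen receptors, laminin receptors, receptors for the RGD motif of fibronectin and vitronectin, the related α4 and α9 chains, and receptors of white blood cells. Laminins are large secreted trimers of an α, a β and a γ chain that form the core sheet of basement membranes, and their α chain carries most of the integrin-binding surface. Melanoma cells express many integrins, and the switch from contact with the basement membrane to contact with the dermal matrix is a known part of melanoma invasion.

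Sequencing depth was similar, with 21448195 counts in control, 21306558 in YA-A375 and 18089008 in OA-A375. Normalised counts are counts over DESeq2 size factors of 1.06, 1.06 and 0.891, and a fold is the ratio of these normalised counts after a pseudocount of 1 was added to each. Brackets hold the 95% interval of the ratio from the reads alone, which covers counting error only and compares libraries rather than conditions. Of 11 melanocyte lineage markers, 5 passed the filter. SOX10 was listed at 0 in all 3 libraries and MLANA had 22, 18 and 16 counts in control, YA-A375 and OA-A375, whereas S100B had 843, 591 and 550. The summed normalised count of the list was 13243, 13754 and 8975, most of it from ERBB3, and 2434, 1807 and 2022 without ERBB3, so that YA-A375 was then the lowest library. The adipocyte markers ADIPOQ (1, 0 and 0 counts) and LEP (0 in each) and the fibroblast markers COL1A2 (1, 1 and 2) and COL3A1 (0, 1 and 1) were at or near 0, although 6 of 11 adipocyte markers and 6 of 11 fibroblast markers passed the filter. The summed normalised count was 2251, 3194 and 2265 for the adipocyte list and 843, 1182 and 1621 for the fibroblast list. Without PPARG the adipocyte list summed to 736, 1338 and 548, and without COL6A3 the fibroblast list summed to 707, 897 and 626. None of the 10 leukocyte markers passed, and PTPRC had 0, 1 and 0 counts. Of 8 endothelial markers 3 passed, with a summed normalised count of 281, 275 and 132.

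The 3 libraries held much the same members at high level but differed in a small number of them by large factors. Compared with control, YA-A375 had 6 members that were higher by 1.2-fold or more and 12 that were lower by that factor (20% and 40% of the 30), against 17.4% and 16.4% of all 14413 genes. OA-A375 had 13 higher and 12 lower than control (43.3% and 40%), against 21.1% and 21.5% of all genes. Set directly against YA-A375, OA-A375 had 17 members higher and 8 lower (56.7% and 26.7%), against 21.5% and 23% of all genes. When only intervals wholly beyond 1.2-fold were counted, 4 members were higher and 10 lower in YA-A375 than in control. By this rule 13 were higher and 6 lower in OA-A375 than in control. Against YA-A375, 13 were higher and 4 lower in OA-A375. The shares of all genes under this rule were not computed, and it favours genes with many reads, whose intervals are narrow. Both comparisons with control share the control library, and all 3 comparisons share libraries in pairs, so they are not separate observations of the same gene. Marker lists also moved between the libraries. In YA-A375 all 6 adipocyte markers past the filter were higher than in control, and the fibroblast sum was higher with and without COL6A3. In OA-A375 the melanocyte and endothelial sums were lower than in control, and the fibroblast sum was higher with COL6A3 and lower without it. The adipocyte sum in OA-A375 was close to control with PPARG and lower without it. Single markers moved further than the sums and not in 1 direction. In control, YA-A375 and OA-A375, the adipocyte markers LPL and CIDEC had 353, 583 and 30 counts and 6, 31 and 36. The fibroblast markers DCN and PDGFRA had 13, 138 and 24 counts and 76, 20 and 51. The part of these shifts in the member differences was not tested.

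At 2-fold, YA-A375 had 1 member higher than control (ITGA10) and 2 lower (ITGA11 and ITGA9), where 2.15% and 0.971% of all genes lay that far. OA-A375 had 4 members higher than control (LAMA1, ITGB7, LAMA5 and ITGA5) and 4 lower (ITGA9, ITGA11, ITGA10 and ITGB2), where the shares of all genes were 2.86% and 3.71%. Between OA-A375 and YA-A375, LAMA1, ITGA1, LAMA4 and ITGA2 were at least 2-fold higher in OA-A375, where 3.04% of all genes were. ITGA9, ITGA10 and ITGA11 were at least 2-fold lower there, as were 4.43% of all genes. ITGA2 lay near this line, with a log2 fold change of 0.999 under total-count scaling. ITGA11, with 62, 23 and 6 counts, passed the filter through the control library, so its lower calls, here and at 1.2-fold, are not separate from the filter. The median log2 fold change of the members was -0.15 for YA-A375 against control, 0.15 for OA-A375 against control and 0.30 for OA-A375 against YA-A375, where the medians of all genes were -0.02, 0.01 and 0.01. The sign for OA-A375 against control was not stable: it was -0.040 with no filter on low counts and -0.050 as a mean, and the mean for OA-A375 against YA-A375 was 0.071. Without regard to sign, the median size of the log2 difference was 0.38, 0.53 and 0.51 for the members in these comparisons and 0.17, 0.21 and 0.23 for all genes. The members are adhesion genes picked by name and are not replicates of a condition.

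**Figure D1:**
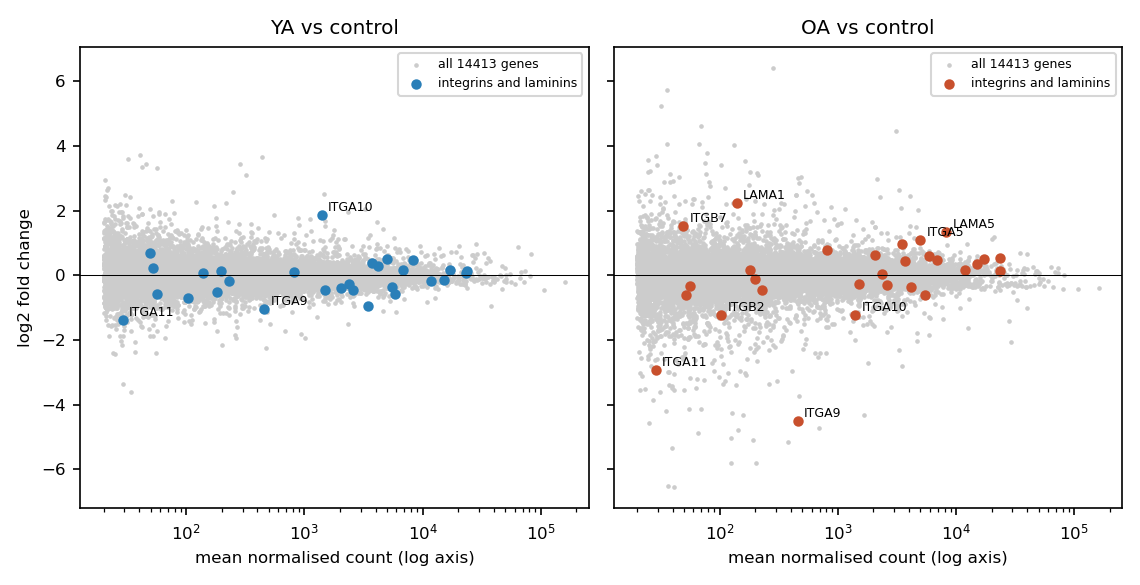
Log2 fold change (vertical axis) against mean normalised count (horizontal log axis) for the 14413 genes past the filter, with 1 panel each for YA-A375 and OA-A375 against control, integrins and laminins in colour and all genes in grey. Of the members named for the widest differences, ITGA9, ITGA10 and ITGA11 lie outside the bulk of the grey points. LAMA1 lies outside it in the OA-A375 panel only. High-count members such as LAMB1 and ITGB1 lie near 0.

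Levels of different genes can be set side by side only per length, so normalised counts were divided by the kilobases of merged exons. On this scale LAMB1 stood at the 98.5th percentile of the genes past the filter in control, LAMC1 at the 98.1st, ITGA6 at the 98.0th, ITGB1 at the 97.7th and ITGA3 at the 96.7th. These genes encode the β1 and γ1 laminin chains and the α6, β1 and α3 integrin chains, which is the subunit set of laminin receptors and of the most common laminins. ITGB5 and ITGB4 followed at the 94.8th and 93.4th percentile. At the low end, 7 members did not pass the filter in these cells.

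**Figure D2:**
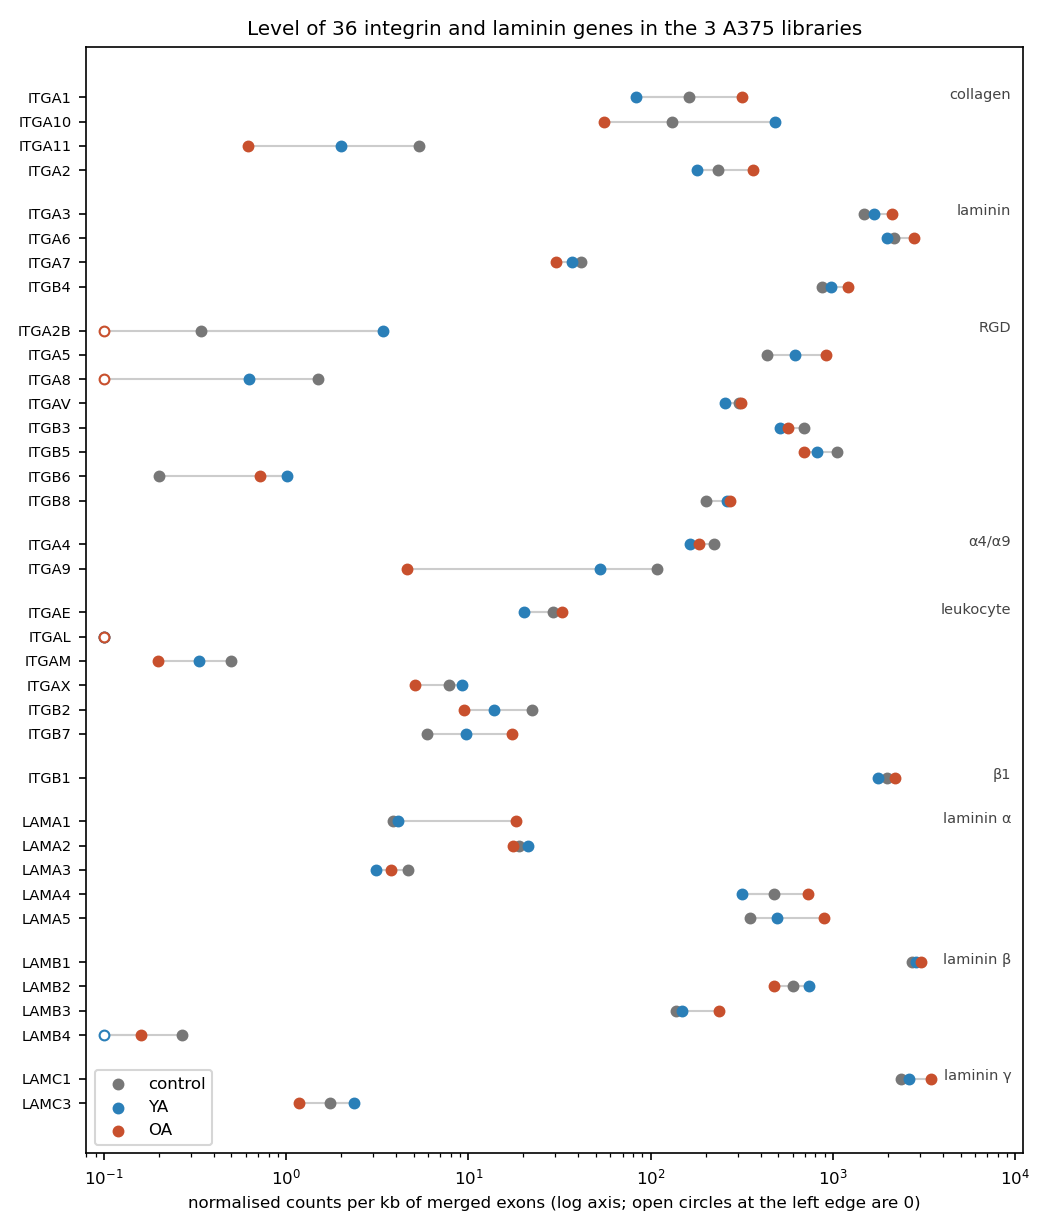
Normalised counts per kilobase of merged exons (horizontal log axis) for 36 members, ordered by class, with 1 point for each library (control, YA-A375 and OA-A375) and open circles at the left edge for a level of 0. The 3 points of LAMB1, LAMC1, ITGB1 and ITGA6 lie close together at the right, and those of ITGA9 and ITGA10 are spread widely.

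The collagen-binding α chains differed widely between the libraries, and not in 1 direction. All 4 pair with β1 alone: α1 and α2 are the main receptors for network and fibrillar collagen on many cells, α10 is known from cartilage, and α11 from fibroblasts. ITGA10 and ITGA11 were low in OA-A375 while ITGA1 and ITGA2 were high there. The upstream sequence of these genes is shown because the genes of this class differed in direction, with ITGA1 and its neighbour ITGA2 on one side in OA-A375 and ITGA10 and ITGA11 on the other. Each is the RefSeq promoter window of 300 bases on GRCh38.p14 around the annotated start, 5′ to 3′ on the gene's own strand, and capitals mark a GC box (GGGCGG on either strand). The windows are chr5:52787666-52787965 on the + strand for ITGA1, chr5:52989102-52989401 on the + strand for ITGA2, chr1:145910001-145910300 on the − strand for ITGA10 and chr15:68432114-68432413 on the − strand for ITGA11.
ITGA1: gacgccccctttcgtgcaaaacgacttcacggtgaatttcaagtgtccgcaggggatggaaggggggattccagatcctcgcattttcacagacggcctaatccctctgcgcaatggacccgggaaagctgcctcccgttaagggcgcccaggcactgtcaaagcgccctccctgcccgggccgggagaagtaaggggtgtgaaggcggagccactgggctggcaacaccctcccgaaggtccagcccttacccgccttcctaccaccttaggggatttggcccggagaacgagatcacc
ITGA2: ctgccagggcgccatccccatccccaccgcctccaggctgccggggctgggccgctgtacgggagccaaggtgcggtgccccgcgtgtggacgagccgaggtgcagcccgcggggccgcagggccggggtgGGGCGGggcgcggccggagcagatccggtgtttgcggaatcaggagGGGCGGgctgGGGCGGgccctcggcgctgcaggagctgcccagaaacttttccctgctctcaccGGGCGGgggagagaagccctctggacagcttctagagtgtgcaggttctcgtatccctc
ITGA10: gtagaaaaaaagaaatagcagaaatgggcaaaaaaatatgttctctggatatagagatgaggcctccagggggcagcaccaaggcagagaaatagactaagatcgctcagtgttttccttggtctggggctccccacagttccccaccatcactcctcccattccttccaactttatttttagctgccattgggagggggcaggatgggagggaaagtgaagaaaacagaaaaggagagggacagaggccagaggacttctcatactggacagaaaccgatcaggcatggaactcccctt
ITGA11: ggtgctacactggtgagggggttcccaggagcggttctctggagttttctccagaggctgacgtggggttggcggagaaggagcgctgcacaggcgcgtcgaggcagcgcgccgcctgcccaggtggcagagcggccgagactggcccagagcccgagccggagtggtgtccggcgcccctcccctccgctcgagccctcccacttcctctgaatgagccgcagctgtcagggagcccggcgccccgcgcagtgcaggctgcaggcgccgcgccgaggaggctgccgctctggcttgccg

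The ITGA2 window held 4 GC boxes and the other 3 windows held none, although ITGA11 had a G+C content of 72%, near the 72.7% of ITGA2, against 61.7% for ITGA1 and 48.7% for ITGA10. The GC box was present in 45.0% of the 35116 windows in the table and in 14 of the 26 members with a window. None of the 4 windows held an AP-1 motif (TGANTCA), which 7.71% of all windows and 3 members (ITGA5, LAMA3 and LAMB3) did. TATAAA was found in 11.5% of all windows and in 2 members, ITGA6 and ITGB1. Motif matches describe letters in these windows and say nothing of binding in A375 cells.

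ITGA10 (chromosome 1, 145891208 to 145910189, − strand) had 876 counts in control, 3204 in YA-A375 and 312 in OA-A375. YA-A375 was the high library and OA-A375 the low one, on opposite sides of control. The fold against control was 3.67 [3.40 to 3.96] in YA-A375, and in OA-A375 the level was 2.35-fold lower [2.07 to 2.69]. In bulk RNA, fewer cells that express a gene and less of its RNA per cell cannot be told apart. Between the secretomes ITGA10 was 8.62-fold lower in OA-A375 [7.70 to 9.74].

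ITGA1 (chromosome 5, 52787896 to 52959210, + strand) gave the reverse order, with 3175 counts in control, 1632 in YA-A375 and 5209 in OA-A375. It was 1.94-fold lower in YA-A375 than in control [1.83 to 2.06], 1.95-fold higher in OA-A375 [1.87 to 2.04] and 3.79-fold higher in OA-A375 than in YA-A375 [3.59 to 4.01]. Its next member on the chromosome is ITGA2, which begins 30116 bp further along on the same strand. ITGA2 had 1963, 1504 and 2553 counts and the same order of libraries with smaller steps: 1.30-fold lower in YA-A375 than in control [1.22 to 1.39], 1.55-fold higher in OA-A375 [1.46 to 1.64] and 2.02-fold higher in OA-A375 than in YA-A375 [1.89 to 2.15]. The ITGA1 exons overlap those of PELO over 2.56% of their length.

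ITGA11 was the rare member of the class, with 62 counts in control, 23 in YA-A375 and 6 in OA-A375, and passed the filter through the control library. It was 2.61-fold lower in YA-A375 than in control [1.64 to 4.55] and 7.68-fold lower in OA-A375 [3.77 to 24.5]. With 6 counts in OA-A375, the interval against YA-A375 ran from 1.28 to 9.69 around a 2.94-fold lower level.

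The laminin-binding integrins differed by less than 1.5-fold in every comparison, and 3 of the 4 were abundant. α3, α6 and α7 bind laminin with β1, and α6 also pairs with β4 in hemidesmosomes of epithelial cells. None of these 4 genes differed by 1.2-fold between YA-A375 and control, and 3 of 4 were higher in OA-A375 than in control, where 21.1% of all genes were. In YA-A375 most genes of the table also lay within 1.2-fold of control. ITGA3 had 15453, 17404 and 18331 counts in control, YA-A375 and OA-A375, and was 1.41-fold higher in OA-A375 than in control [1.38 to 1.44]. ITGA6 had 15001, 13665 and 16122 counts and was 1.28-fold higher in OA-A375 [1.25 to 1.31]. ITGB4 had 6275, 6983 and 7262 counts and was 1.38-fold higher in OA-A375 [1.33 to 1.43].

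ITGA7, best known as the laminin receptor of muscle, was the low gene of this class and went the other way. It had 279, 248 and 171 counts and was 1.37-fold lower in OA-A375 than in control [1.13 to 1.67]. Directly between the secretomes, ITGA3, ITGA6 and ITGB4 were 1.25-fold [1.23 to 1.28], 1.4-fold [1.37 to 1.43] and 1.24-fold [1.2 to 1.28] higher in OA-A375, and ITGA7 was 1.22-fold lower [1.00 to 1.49].

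Among the RGD-binding integrins, ITGA5 stood highest in OA-A375. It encodes α5, which with β1 is the classical fibronectin receptor. It had 3486 counts in control, 4943 in YA-A375 and 6187 in OA-A375, and was above control with both secretomes, 1.42-fold in YA-A375 [1.36 to 1.49] and 2.11-fold in OA-A375 [2.03 to 2.20]. OA-A375 was 1.49-fold above YA-A375 [1.43 to 1.54].

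αV pairs with β1, β3, β5, β6 or β8, and its β partners did not go together. ITGB8, whose αVβ8 receptor activates latent TGF-β, had 3219, 4183 and 3669 counts and was 1.30-fold higher in YA-A375 [1.24 to 1.37] and 1.36-fold higher in OA-A375 [1.29 to 1.42] than in control. ITGB5, a vitronectin receptor chain, had 7210, 5569 and 3970 counts and was lower than control in both, 1.29-fold in YA-A375 [1.25 to 1.34] and 1.52-fold in OA-A375 [1.47 to 1.59]. ITGB3, long used as a marker of melanoma progression, had 3239, 2372 and 2227 counts and was 1.36-fold lower in YA-A375 [1.29 to 1.44] and 1.22-fold lower in OA-A375 [1.16 to 1.29]. Its exons overlap those of AC068234.1, a gene listed at 0 in every library, over 51.6% of their length. ITGAV itself had 2638, 2207 and 2281 counts and stayed within 1.2-fold of control in both, while OA-A375 was 1.23-fold above YA-A375 [1.16 to 1.30], a log2 value of 0.30 that was 0.24 after a correction for transcript length and G+C content, under 1.2-fold.

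Of the other RGD receptors, ITGA2B (the platelet chain αIIb), ITGA8 and ITGB6 did not pass the filter. ITGA2B had 2, 20 and 0 counts, so that YA-A375 was the one library with more than a few reads. ITGA8 had 12, 5 and 0 counts and was highest in control. ITGB6 had 1, 5 and 3 counts.

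The α4 and α9 chains, which bind VCAM-1 and other ligands outside the collagen and laminin families, were both lower with either secretome. In OA-A375, ITGA9 showed the largest difference of any member past the filter. ITGA9 (chromosome 3, 37452115 to 37823514, + strand) had 950 counts in control, 460 in YA-A375 and 34 in OA-A375. It was 2.06-fold lower in YA-A375 than in control [1.84 to 2.31] and 22.9-fold lower in OA-A375 [16.7 to 34.1], a log2 fold change of -4.52. OA-A375 was 11.1-fold below YA-A375 [8.03 to 16.7]. On the per-length scale ITGA9 went from the 51.2nd percentile of genes past the filter in control to the 3.30th in OA-A375. The antisense gene ITGA9-AS1 shares 6.46% of the exon length of ITGA9 and had 5, 9 and 1 counts.

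ITGA4 had 1865, 1373 and 1297 counts and was 1.35-fold lower in YA-A375 [1.26 to 1.45] and 1.21-fold lower in OA-A375 [1.12 to 1.30] than in control. With the correction for length and G+C content its log2 fold change in OA-A375 was -0.24, under 1.2-fold. Unlike ITGA9, it was 1.12-fold higher in OA-A375 than in YA-A375 [1.04 to 1.21]. The step from control to OA-A375 was thus far larger for ITGA9 than for ITGA4.

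The integrins of white blood cells were rare. None of the 10 leukocyte markers, a list that includes ITGAL, passed the filter. PTPRC had 0, 1 and 0 counts, CSF1R had 16, 22 and 13, and LCP2 had 22, 14 and 7. ITGB2, the shared β chain of the leukocyte integrins, had 161, 99 and 57 counts and was 1.61-fold lower in YA-A375 [1.25 to 2.10] and 2.35-fold lower in OA-A375 [1.74 to 3.27] than in control. Its α partner ITGAX had 59, 69 and 32 counts. The 1.53-fold lower level of ITGAX in OA-A375 had an interval that reached 1 [0.990 to 2.46], and against YA-A375 it was 1.79-fold lower [1.18 to 2.85]. The partners ITGAL (0 in each library) and ITGAM (3, 2 and 1) did not pass the filter.

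ITGAE and ITGB7 encode αE and β7, which together bind E-cadherin. ITGAE had 205, 142 and 192 counts, was 1.44-fold lower in YA-A375 than in control [1.16 to 1.80] and 1.60-fold higher in OA-A375 than in YA-A375 [1.29 to 2.01]. ITGB7 had 28, 46 and 69 counts and was 1.62-fold higher in YA-A375 [1.01 to 2.74] and 2.86-fold higher in OA-A375 [1.87 to 4.73] than in control. The exons of ITGB7 overlap those of ZNF740 on the opposite strand over 42.1% of their length, and ZNF740 had 1662, 1674 and 1236 counts. The exons of ITGAE overlap those of HASPIN on the opposite strand over 6.41% of their length, and HASPIN had 364, 408 and 341 counts. Whether strand was used in counting is not given in the sources used here. Reads of ITGB7 and ZNF740, and of ITGAE and HASPIN, may therefore be mixed. The part of this in the ITGB7 and ITGAE values was not tested.

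ITGB1, the β chain that most of these α chains share, stayed within 1.2-fold of control with both secretomes. It had 12590, 11172 and 11762 counts, 1.12-fold lower in YA-A375 [1.10 to 1.15] and 1.11-fold higher in OA-A375 [1.09 to 1.14] than in control. OA-A375 was 1.25-fold above YA-A375 [1.22 to 1.28].

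**Figure D3:**
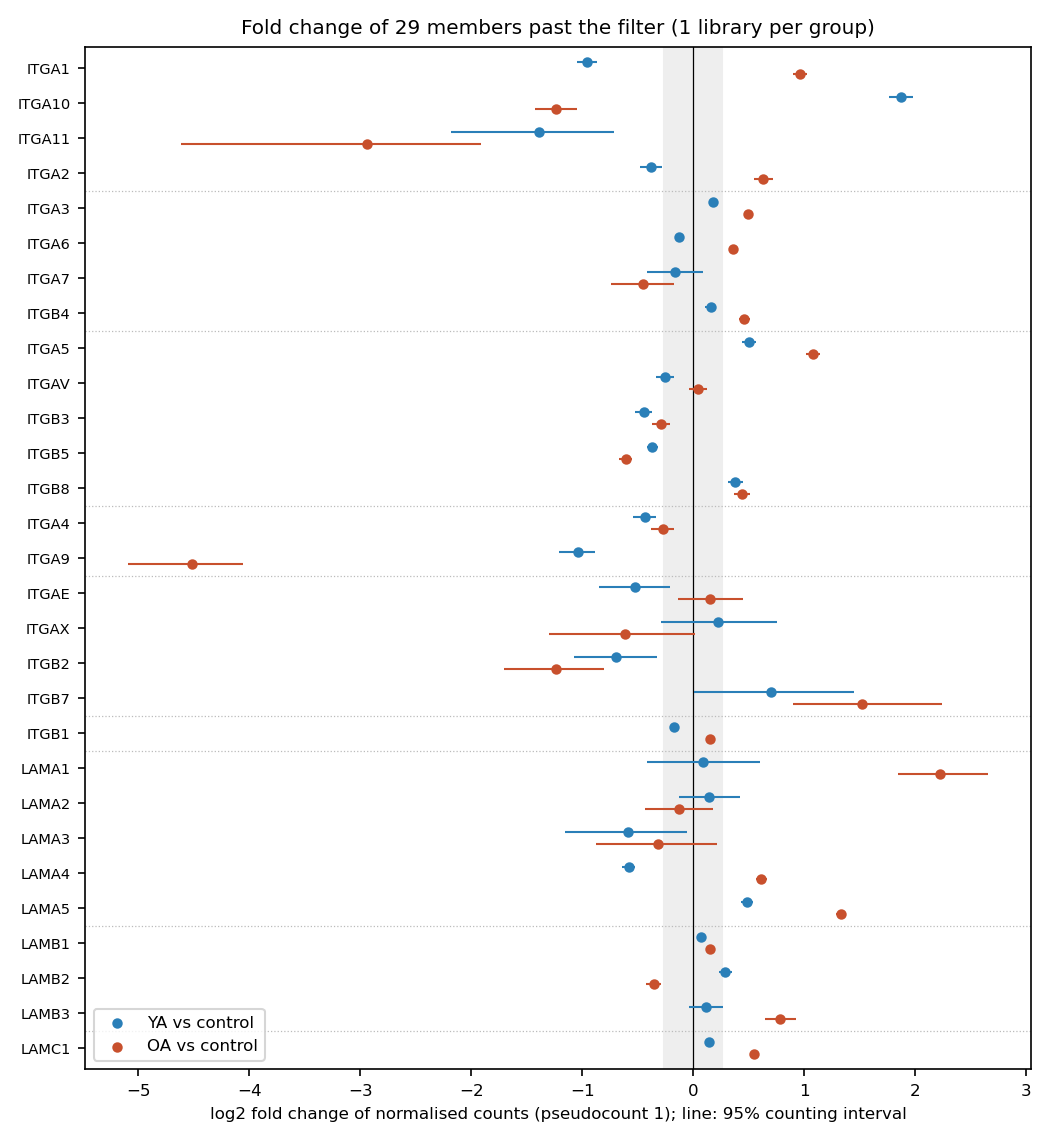
Log2 fold change of normalised counts (horizontal axis) for 29 members past the filter, with 1 point each for YA-A375 and OA-A375 against control, a line for the 95% counting interval and a grey band for differences under 1.2-fold. For OA-A375 against control, ITGA9 and ITGA11 lie far to the left and LAMA1 lies at the right. ITGA10 lies to the right for YA-A375 and to the left for OA-A375 against control.

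Of the laminin genes, 3 of the 5 α chain genes were higher in OA-A375 than in control, where 21.1% of all genes were. LAMA5, the chain of the laminins of most mature epithelia and vessels, had 5330 counts in control, 7437 in YA-A375 and 11279 in OA-A375. It was 1.4-fold higher in YA-A375 [1.35 to 1.45] and 2.52-fold higher in OA-A375 [2.44 to 2.60] than in control, so that OA-A375 was 1.80-fold above YA-A375 [1.75 to 1.86]. LAMA4, the chain of endothelial, muscle and adipose basement membranes, had 5827, 3885 and 7481 counts and lay on both sides of control. LAMA4 was 1.5-fold lower in YA-A375 [1.44 to 1.56], 1.53-fold higher in OA-A375 [1.48 to 1.58] and 2.29-fold higher in OA-A375 than in YA-A375 [2.20 to 2.38].

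LAMA1, the α chain of the embryonic laminin, was low in control and YA-A375. It had 65, 69 and 259 counts and was 4.69-fold higher in OA-A375 than in control [3.6 to 6.33] and 4.41-fold higher than in YA-A375 [3.41 to 5.90]. Its fold in YA-A375 was 1.06 [0.748 to 1.52]. LAMA1 was the member with the largest increase in OA-A375 among those past the filter.

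LAMA2, the muscle laminin chain, had 209, 231 and 161 counts, and its intervals in all 3 comparisons included 1. LAMA3, the α chain of the laminin of the skin's basement membrane, had 73, 48 and 49 counts and was 1.51-fold lower in YA-A375 than in control [1.04 to 2.23]. Its 1.25-fold lower level in OA-A375 had an interval of 0.859 to 1.83, and its 1.21-fold higher level in OA-A375 than in YA-A375 one of 0.797 to 1.84. Neither difference was detectable at this depth.

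LAMB1 and LAMC1 carried the highest counts of all members and differed by less than 1.5-fold. LAMB1 had 23495, 24572 and 21899 counts, 1.05-fold [1.03 to 1.07] and 1.11-fold [1.09 to 1.13] above control in YA-A375 and OA-A375. LAMC1 had 21061, 23185 and 25855 counts and was 1.46-fold higher in OA-A375 than in control [1.44 to 1.49], with YA-A375 at 1.10-fold [1.08 to 1.12]. LAMB2 takes the place of LAMB1 at synapses and in the kidney filter. It had 4405, 5370 and 2895 counts and was 1.22-fold higher in YA-A375 [1.17 to 1.27] and 1.28-fold lower in OA-A375 [1.22 to 1.34] than in control, and 1.56-fold lower in OA-A375 than in YA-A375 [1.49 to 1.63]. After a correction for transcript length and G+C content its log2 fold change in YA-A375 was 0.22, below the 1.2-fold line.

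LAMB3, a β chain of the skin's basement membrane, had 683, 739 and 990 counts and was 1.73-fold higher in OA-A375 than in control [1.56 to 1.91] and 1.59-fold higher than in YA-A375 [1.45 to 1.75]. The chains LAMB4 (2, 0 and 1 counts) and LAMC3 (14, 19 and 8 counts) did not pass the filter.

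An integrin or laminin chain works only with its partners, so each gene was also expressed as a share of its partner pool, per length, with a counting interval in brackets. These are shares of mRNA, and protein was not measured. Among the 12 α partners of β1, ITGA6 took 40.9% in control [40.4 to 41.4], 35.8% in YA-A375 [35.3 to 36.3] and 39.3% in OA-A375 [38.8 to 39.7]. ITGA10 took 2.47% [2.31 to 2.63], 8.67% [8.39 to 8.96] and 0.786% [0.699 to 0.873], so that in YA-A375 it exceeded ITGA1, ITGA2, ITGA4 and ITGAV. ITGA5 took 8.2% [7.94 to 8.46], 11.2% [10.9 to 11.5] and 13% [12.7 to 13.3]. The fibronectin receptor chain was thus the third largest in every library, behind ITGA6 and ITGA3. ITGA3 took 28.1%, 30.4% and 29.8%, and its order against ITGA6 depended on the length used: with the longest transcript in place of merged exons, control had 35.6% for ITGA3 and 33.7% for ITGA6. The summed level of the 12 partners was 5290, 5524 and 7050 normalised counts per kb in control, YA-A375 and OA-A375, while ITGB1 stood at 1974, 1757 and 2196.

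In the pool of β chains that pair with αV, ITGB1 took 50.3% in control [49.7 to 50.9], 52.5% in YA-A375 [51.8 to 53.2] and 58.9% in OA-A375 [58.2 to 59.6]. With raw counts and no length, ITGB1 took 47.9% in control, 47.9% in YA-A375 and 54.4% in OA-A375. ITGB1 is shared by the 12 α partners above, of which ITGAV took 5.72% in control, 4.60% in YA-A375 and 4.42% in OA-A375. The level of ITGB1 is therefore no measure of αVβ1, and the shares of the other β chains in this pool depend on it. ITGB3 took 17.7% [17.2 to 18.2], 15.3% [14.7 to 15.8] and 15.3% [14.7 to 15.8]. The part of the exon overlap of ITGB3 with AC068234.1 in these shares was not tested. ITGB5 took 26.9% [26.3 to 27.4], 24.4% [23.8 to 25.0] and 18.5% [18.0 to 19.1]. ITGB8 took 5.10% [4.92 to 5.28], 7.80% [7.56 to 8.04] and 7.29% [7.05 to 7.53]. With raw counts and no length, ITGB8 took 12.26% in control, 17.95% in YA-A375 and 16.96% in OA-A375. ITGB3 then took 12.33%, 10.18% and 10.30%. The order of ITGB8 and ITGB3 in the secretome libraries thus depended on whether length was used. The share of ITGB5 was lowest in OA-A375 and that of ITGB8 was above control in both.

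The laminin α pool was made up almost wholly of LAMA4 and LAMA5. LAMA4 took 55.6% in control [54.7 to 56.5], 37.9% in YA-A375 [37 to 38.8] and 43.9% in OA-A375 [43.2 to 44.7]. LAMA5 took 41.2% [40.3 to 42.1], 58.7% [57.8 to 59.7] and 53.7% [52.9 to 54.4]. LAMA4 was therefore the larger in control and LAMA5 in both secretome libraries. With the longest transcript as the length, OA-A375 kept LAMA4 above LAMA5 (52.5% and 45.4%), whereas YA-A375 had 46.4% and 50.9%. LAMA1 took 1.11% in OA-A375 [0.975 to 1.24].

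The summed level of the laminin α chains was 853, 837 and 1651 normalised counts per kb in control, YA-A375 and OA-A375, 1.93-fold higher in OA-A375 than in control. The β chains summed to 3462, 3741 and 3730 and the γ chains to 2393, 2626 and 3475. Within the β pool, LAMB2 took 17.5% [17 to 17.9], 19.8% [19.3 to 20.2] and 12.7% [12.3 to 13.1]. As shares of all counts, the 25 integrins came to 0.367% in control [0.365 to 0.370], 0.363% in YA-A375 [0.360 to 0.366] and 0.452% in OA-A375 [0.449 to 0.455], and the 12 laminins to 0.286% [0.284 to 0.288], 0.308% [0.306 to 0.311] and 0.393% [0.390 to 0.395].

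**Figure D4:**
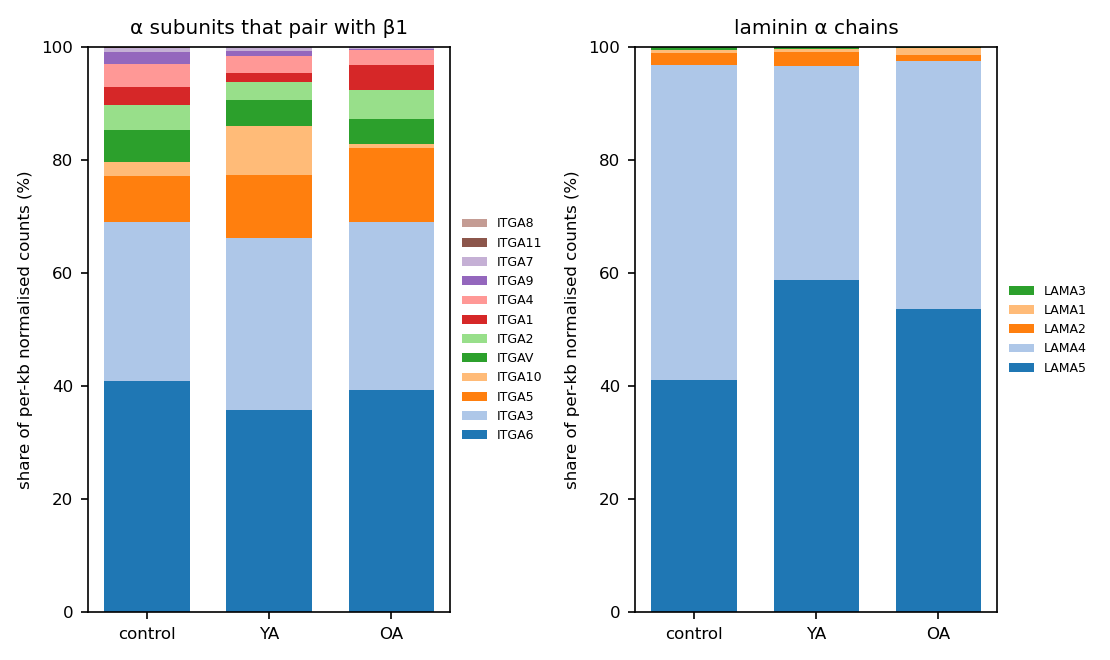
Share of per-kilobase normalised counts (vertical axis, percent) within the α partners of β1 (left) and the laminin α chains (right), as stacked bars for control, YA-A375 and OA-A375. The ITGA10 band is widest in YA-A375, and the laminin α bars are split between LAMA4 and LAMA5.

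Genes that act with the members were described as lists. Of 33 genes listed as integrin activators and adaptors, 29 passed the filter. In YA-A375 3 were at least 1.2-fold higher than control and 1 lower (10.3% and 3.45%, against 17.4% and 16.4% of all genes), and in OA-A375 3 were higher and 7 lower (10.3% and 24.1%, against 21.1% and 21.5% of all genes). The shares of all genes are the same for the lists that follow. The median log2 fold change of the list was -0.06 and 0.02. TNS4, a focal adhesion gene, had 20, 74 and 25 counts, and TNS1 had 87, 70 and 27.

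Of 11 integrin-bound collagen genes past the filter, 6 were higher and 2 lower in YA-A375 than in control (54.5% and 18.2%), and the counts were equal in OA-A375. COL6A3, a chain of the microfibril collagen VI, had 145, 302 and 886 counts and was 7.23-fold higher in OA-A375 than in control. It is also 1 of the fibroblast markers. Of 13 other integrin ligands past the filter, 4 were higher and 2 lower in YA-A375 (30.8% and 15.4%), and 4 higher and 5 lower in OA-A375 (30.8% and 38.5%). FN1, which encodes fibronectin, the ligand of α5β1, had 3553, 5167 and 1620 counts, and so was lowest in OA-A375, the library in which ITGA5 was highest. ICAM1, a ligand of β2 integrins, had 1038, 1389 and 2353 counts.

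Of 15 basement membrane partners of laminin past the filter, 5 were higher and 3 lower in YA-A375 than in control (33.3% and 20%), and 6 higher and 2 lower in OA-A375 (40% and 13.3%). SPARC, a collagen-binding matrix protein, had 31052, 29762 and 42386 counts, and COL15A1 had 74, 37 and 7. All 8 non-integrin laminin receptors passed. Of these, 1 was higher and 2 lower in YA-A375 (12.5% and 25%), and 4 were higher and 3 lower in OA-A375 (50% and 37.5%). SDC2, the syndecan-2 proteoglycan, had 910, 571 and 194 counts, and SDC1 had 1586, 1210 and 2210, so these syndecans went opposite ways between the secretomes.

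**Figure D5:**
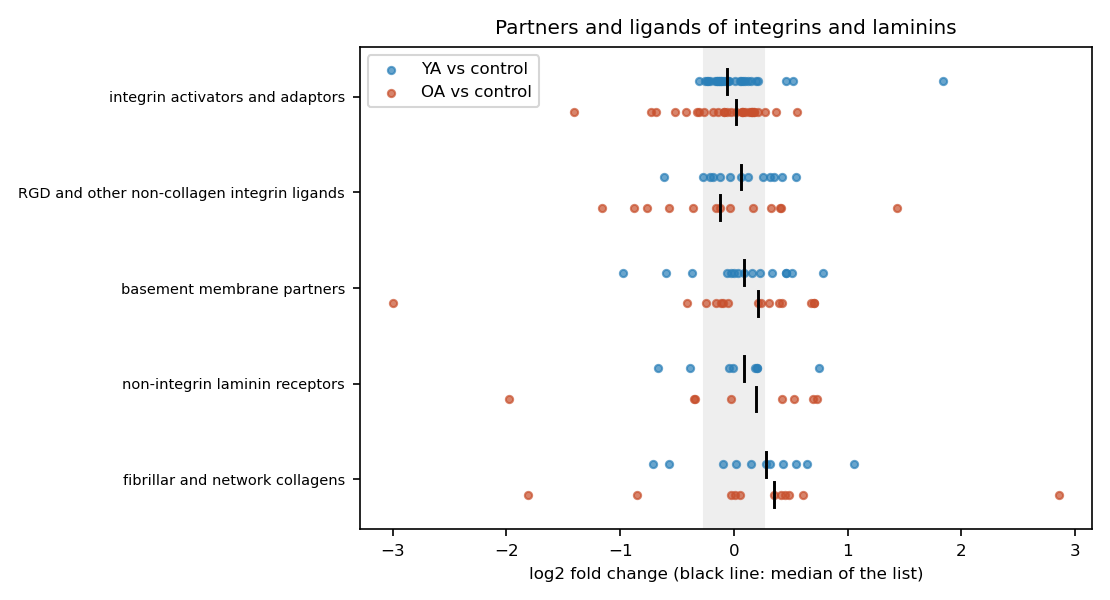
Log2 fold change (horizontal axis) of the genes past the filter in the companion lists, with 1 point for each gene in YA-A375 and in OA-A375 against control and a black line at the median of the list. The medians lie between -0.12 and 0.36, and single genes such as COL6A3, COL15A1 and SDC2 lie far from them.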

How the data were processed

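RNA was sequenced from 3 A375 libraries, 1 per group. Per the labels, poly(A) libraries were made with a SureSelect kit, sequenced on a NovaSeq and converted with bcl2fastq. The submitters' processing notes name STAR 2.5.1b, featureCounts, R 3.6.1 and hg38, without giving the role of each; the annotation release and strand setting are not given in the sources used here. The authors deposited raw counts per gene for 58037 genes, as whole numbers. The study names DESeq2 for these data and a cutoff of 1.2, read here as a linear fold.

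Size factors came from DESeq2 1.42.0 (R 4.3.3), with TMM from edgeR 4.0.16 as an alternative. No dispersion was fitted, because a group of 1 library has no spread. Fold changes used a pseudocount of 1. Their 95% intervals were Clopper-Pearson intervals of the raw reads, computed without the pseudocount, and shares of all counts had Wilson intervals. Since the reads carry no molecular identifiers and may be copies of each other, both cover counting error only. The rest ran in Python 3.11.15 with scipy 1.17.1, pandas 2.3.3, numpy 2.4.6 and, for figures, matplotlib 3.10.9, and the scripts were tested on simulated data.

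Exon lengths came from GENCODE 29 on GRCh38, in which 57388 identifiers and all 37 members were found, 28 members with the same identifier version. Promoters came from RefSeq, with a window for 26 members. The members, companion lists and marker lists were chosen with earlier results of these data known. Of the members, 1 is included in the counts and sums but its own values are not reported here. Counts were given for each other member past the filter, and from each companion list up to 3 genes with the largest change were eligible to be named.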

Additional observations from a re-analysis of the deposited data

How the results depend on the processing

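With 1 library per group no replicate could be left out, and the spread between cultures is unknown. No paired analysis was possible because each group had 1 library. TMM scaling, total-count scaling, a pseudocount of 5 and a filter of 100 kept all 9 member counts and medians within their limits, and the first 3 of these moved none of the 90 member values beyond its counting interval. A correction for transcript length and G+C content, chosen after seeing the data, moved 22 of 90 member values and reversed no called one, but ended 4 calls at 1.2-fold: LAMB2 in YA-A375 (log2 0.22), ITGA4 in OA-A375 (-0.24), and ITGAV (0.24) and LAMA2 (-0.22) between the secretomes. TMM, total-count scaling and the pseudocount of 5 each ended the 1.2-fold call of LAMA3 between the secretomes. Total-count scaling also took ITGA2 in OA-A375 against YA-A375 just under 2-fold (log2 0.999). With no filter, the OA-A375 against control median was -0.040 and, with the filter but as a mean, -0.050, against 0.15 in the main setting, and the OA-A375 against YA-A375 median was 0.22, or 0.071 as a mean with the filter, and 13 members were lower in OA-A375 than in YA-A375 with no filter. The cause was not tested. At 2-fold, 1 member was higher and 2 lower in YA-A375 than in control, 4 and 4 in OA-A375, and 4 and 3 in OA-A375 against YA-A375. At a log2 change of 1.2 these were 1 and 1, 3 and 4, and 2 and 3. Counting only intervals wholly beyond 1.2-fold left 6 lower in OA-A375 than in control and 4 lower than in YA-A375. The shares of all genes at a log2 change of 1.2 and under the interval rule were not computed. Shares moved beyond their intervals in 59 of 87 cases with the longest transcript and in 57 of 87 with raw counts.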
